A study of Ambystoma mexicanum with 18 samples.

Results

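Distal blastema cells that carried no detectable overexpression construct were compared between 3 and 8 days post electroporation (dpe), using 6 of the 18 deposited libraries, 3 at each time point. The libraries were chosen by their labels alone: Control libraries of 3 dpe against Control libraries of 8 dpe. The axolotls (Ambystoma mexicanum) were Hoxa13:mCherry reporter animals, in which the red fluorescent protein mCherry is made together with HOXA13 from the Hoxa13 gene itself. Red cells are thus those that express this marker of the future hand or did so earlier. The study states that mCherry protein remains in distal cells when Hoxa13 is lowered. Limbs were amputated near the elbow, and their blastemas were electroporated 13 days later with Tig1-T2a-GFP or Tig1P155A-T2a-GFP, plasmids that join a green fluorescent protein to the cell surface protein Tig1 or to a form of it with a mutated latexin domain. Control cells were the mCherry+ GFP- cells of these blastemas, collected at 3 dpe (16 days after amputation) or 8 dpe (21 days), while mCherry+ GFP+ cells gave the Tig1 and Tig1P155A groups. For each condition 12 blastemas were pooled and 300 cells were sorted for each library.

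These controls therefore shared their blastemas with overexpressing cells, went through the same electroporation and sort, and were not electroporated with GFP alone. A cell with too little GFP to be seen could still have held plasmid. The sources used here do not say whether the libraries of a group came from separate pools, so the p-values measure the spread between libraries, which may be technical, and time cannot be told apart from the pool and the day of collection.

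A blastema is the mound of proliferating progenitor cells that forms on a salamander's limb stump and rebuilds what was lost. As it grows, its cells stop dividing region by region and condense into cartilage, joints, tendons and dermis, from the level of the cut towards the fingertips. In the limb, HOXA13 and HOXD13 mark and specify the hand, sonic hedgehog and fibroblast growth factors keep the distal mesenchyme growing and patterned, and SOX9 with SOX5 and SOX6 switches on the genes of cartilage matrix.

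Read counts per gene were scaled to CPM (counts relative to the size of each library, after TMM normalization, which balances libraries on the bulk of their genes). All values below are CPM in replicates 1, 2 and 3 in that order unless named otherwise. Fold changes are log2 differences of 8 against 3 dpe (3 libraries a group). A gene was called changed at a Benjamini-Hochberg adjusted p under 0.05 in edgeR's quasi-likelihood test, fitted to all 18 libraries. Each SE was derived from that test, as the absolute log2 change divided by the square root of its F statistic.

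The labels matched what was measured. HoxA13 had 77.2, 77.03 and 116 CPM at 3 dpe and 82.9, 85.1 and 80.6 at 8 dpe. The gene paired with Tig1, LOC115479139, had between 2.85 and 8.81 CPM in the 6 control libraries against between 151 and 514 in the 12 overexpressing ones. Limb mesenchyme factors were present at both times: TBX5, a determinant of the forelimb, had between 49.9 and 112 CPM and LHX2, a mediator of distal outgrowth, between 24.98 and 70.1. Total counts lay between 15492743 and 23086124 in the control libraries, and mitochondrial genes took between 23.6% and 45.3% of them. The level that 0 counts allowed (3 counts) lay between 0.0871 and 0.165 CPM among control libraries and covers counting error only.

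Control replicate 1 of 3 dpe stood apart. Summed erythroid markers, mainly the haemoglobin gene HB-B, reached 4933 CPM in it and at most 3.67 CPM in the other 5. It also had the highest ribosomal protein sum (49687 CPM against 20458 to 29534) and the lowest sum of connective tissue markers (4063 CPM against 9040.4 to 15147). Without it, 26 of 48 called genes examined one by one kept their call and 22 lost it. Below, the adjusted p without it is given by itself for some genes, and lies within a range over left-out libraries for others.

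Markers of other cells moved with time in the control libraries. Summed muscle markers had 175, 383 and 67.1 CPM at 3 dpe and 35.5, 12.9 and 44.97 at 8 dpe. Summed nerve sheath markers, mainly PMP22 and NGFR, had 9.81, 11.8 and 22.2 CPM at 3 dpe and 62.9, 98.5 and 85.1 at 8 dpe, with SOX10, the defining factor of Schwann cells, at 0, 0.0871 and 0 and then at 1.73, 4.23 and 5.06. Summed endothelial markers had between 3.59 and 7.19 CPM at 3 dpe and between 20.9 and 51.6 at 8 dpe, of which VWF made up 0.636, 0.174 and 0.812 and then 6.84, 25.6 and 4.43. In replicates 1 and 3 of 8 dpe, ERG made up more of the sum than VWF. It belongs to this list but is given below with the joint genes. Thus muscle markers were lower, and nerve sheath and endothelial markers higher, in every 8 dpe library. Pericyte markers summed to between 84.7 and 136 CPM at 3 dpe and between 185 and 265 at 8 dpe, and pigment cell markers to between 6.24 and 7.71 CPM at 3 dpe and between 9.33 and 11.97 at 8 dpe. Their members were mixed: 2 of 5 tested pericyte and 3 of 7 tested pigment cell markers had a log2 change below 0. NOTCH3 made up 30.4, 46.7 and 59.6 and then 76.2, 76.2 and 101 CPM of the pericyte sum, and 0 pigment cell markers had groups apart.

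Myeloid markers summed to 126, 11.4 and 87.5 CPM at 3 dpe and 37.2, 33.0 and 49.1 at 8 dpe, with overlap. Of 16 tested myeloid markers, 14 had a log2 change below 0 (median -1.22), and 5 were lower and 0 higher at an unadjusted p under 0.05. Lymphocyte markers summed to under 1 CPM. None of the 9 neutrophil granule markers had a gene under its symbol in the deposited counts, so they could not be looked up. Epidermal markers summed to between 516 and 655 CPM at 3 dpe and between 720.1 and 928 at 8 dpe, higher in every 8 dpe library. Of their keratins, KRT18 had between 477 and 728 CPM in all 6 libraries, while KRT5 had 253 CPM in replicate 1 of 8 dpe and at most 7.303 in the other 5. None of these 11 marker lists had a called member. In RNA from pooled cells, more cells of a type and more RNA per cell cannot be told apart, and the part of these markers in the changes below was not tested.

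Of 25377 genes tested, 107 (0.422%) changed between 3 and 8 dpe in control cells: 68 (0.268%) rose and 39 (0.154%) fell. An unadjusted p under 0.05 was seen for 2310 genes, 1392 higher and 918 lower at 8 dpe. Counts of list members below, called or at an unadjusted p under 0.05, are to be read against these numbers over all genes. Since the lists were chosen with earlier results of these data known, such counts describe the lists and are no independent support. The median log2 change of all genes was 0.03. The 3 libraries of one time point lay apart from those of the other in 106 of the 107 called genes, against 17.6% of all genes tested (11.4% with every 8 dpe library higher and 6.22% with every 8 dpe library lower). Of the 107, 79 had a gene symbol, and 62 of those had at least 4 CPM on average.

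The number of calls depended on single libraries. Leaving out 1 of the 6 control libraries gave between 31 calls (without replicate 3 of 8 dpe) and 121 (without replicate 3 of 3 dpe). It gave 67 without replicate 1 of 3 dpe, 66 without replicate 1 of 8 dpe and 55 without replicate 2 of 8 dpe. Without replicate 2 of 3 dpe it gave 99, of which 27 were higher and 72 lower, so that falls then outnumbered rises. Without replicate 3 of 8 dpe the split was 15 higher and 16 lower. A fit of only the 6 control libraries called 256 genes, 61 of them among the 107. Of 48 called genes examined one by one, it kept 39 and lost 9. The 9 were AOAH, ATP2A3, DHRS3, DOCK2, FLI1, IL4R, NAAA, NFIC and PROD1, with adjusted p between 0.0528 and 0.105 in that fit. Of 59 examined genes not called with all libraries, 22 passed the threshold in it. Of 48 called genes examined one by one, 18 stayed past the threshold whichever control library was left out, and 4 (COL, EPHA5, KAZALD1 and WLS) passed it in none of these 6 fits. Below, a call is described as stable where it held in all 6. The word does not cover the scaling: with library size alone as the scale, 15 of the 48 kept their call and 33 lost it. Among the stable calls, B2M, BCL11A, BCL2L11, KCTD12, LYG2, NAAA, RUNX2 and TNFRSF21 were lost in that fit, with adjusted p between 0.0572 and 0.111.

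**Figure D1:**
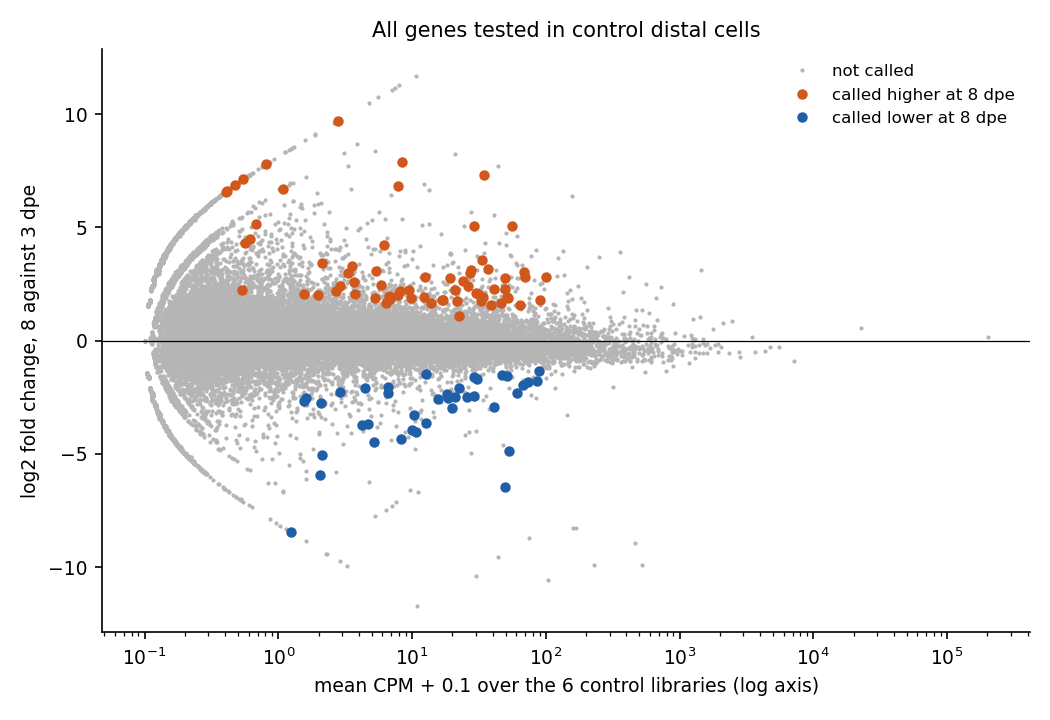
Every gene tested, by its mean CPM + 0.1 over the 6 control libraries (log axis) and its log2 fold change of 8 against 3 dpe. The 68 genes called higher (orange) and 39 called lower (blue) are a small share of the 25377 genes, whose median change was 0.03; many uncalled genes with large changes have few counts.

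Among stable calls with a symbol and at least 4 CPM, the steepest rises were in a matrix, a guidance and a transcription factor gene. ASPN.L, asporin, a small leucine-rich proteoglycan that binds collagen and TGF-beta, had 0.5904, 0.6099 and 0.0812 CPM at 3 dpe and 13.8, 21.97 and 171 at 8 dpe (log2 change 7.30, SE 1.11, adjusted p = 0.00652). All 8 dpe libraries were higher, replicate 3 by far the most. SEMA3D.L, a secreted semaphorin that repels or steers growing axons and migrating cells, had 1.18, 1.19 and 2.64 CPM and then 33.1, 51.2 and 84.7 (5.07, SE 0.80, adjusted p = 0.00652). NFIB, a nuclear factor I transcription factor, had 1.23, 1.02 and 7.39 CPM and then 60.002, 105 and 160.3 (5.08, SE 0.83, adjusted p = 0.00808). Every 8 dpe library was several times every 3 dpe library in both genes.

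Further large rises were less stable. PRSS35, a secreted protein related to serine proteases, had 0, 0 and 0.203 CPM at 3 dpe and 11.7, 12.3 and 25.95 at 8 dpe (7.86, SE 1.33, adjusted p = 0.00994), and the call was lost without replicate 1 of 3 dpe (0.0528) or replicate 3 of 8 dpe (0.0607). ATP2A3, a calcium pump of the endoplasmic reticulum, had 0.273, 0.0581 and 1.502 CPM and then 8.35, 9.4999 and 16.6 (4.24, SE 0.84, adjusted p = 0.0339). Its call held only without replicate 3 of 3 dpe, with adjusted p between 0.0512 and 0.143 in the other 5 fits. The time points did not overlap in either gene.

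**Figure D2:**
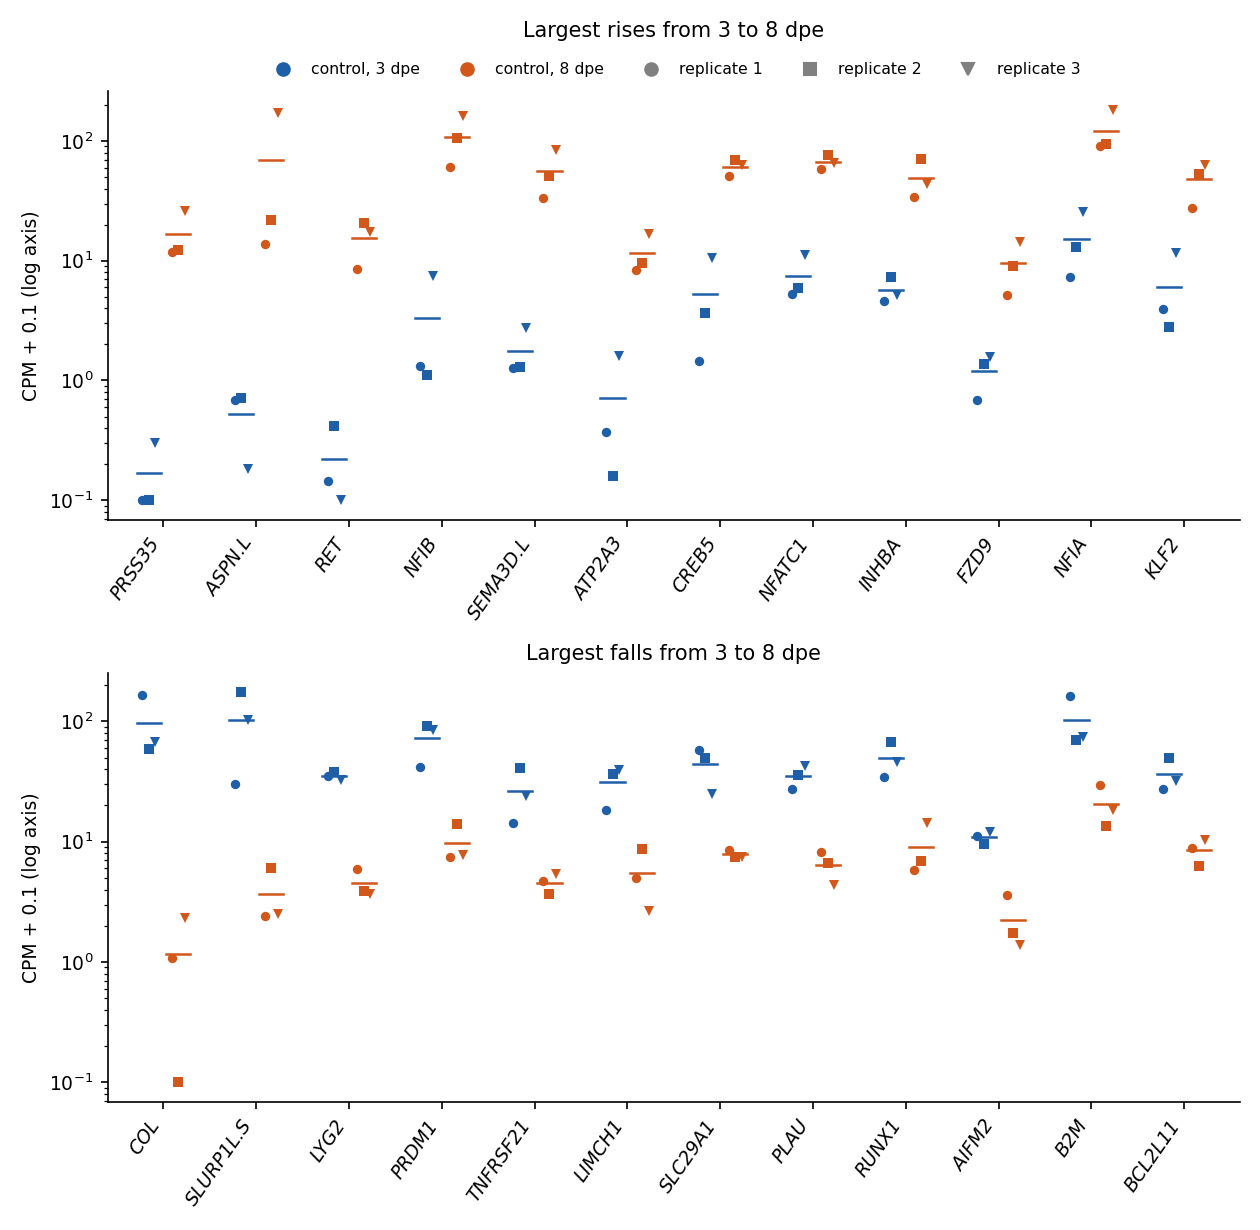
CPM + 0.1 (log axis) of the 12 genes with the largest rise and the 12 with the largest fall among called genes with a symbol, at least 4 CPM on average and groups that do not overlap. Each point is 1 control library (blue, 3 dpe; orange, 8 dpe; symbol, replicate) and each line a mean of 3. A point at the foot of the axis is a library without counts, as for COL in replicate 2 of 8 dpe.

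Among the skeletal genes, RUNX2, the transcription factor that drives osteoblast formation and the maturation of cartilage cells in mammals, rose. It had 11.2, 13.9 and 12.7 CPM at 3 dpe and 78.4, 60.6 and 119.6 at 8 dpe (2.77, SE 0.39, adjusted p = 0.00306). The 3 dpe libraries were close together and all 8 dpe libraries well above them, and the call was stable. In the deposited annotation (AmexG_v6.0-DD), this gene, AMEX60DD032922, lies on chromosome 4p from 222934982 to 223197664. WWP2, a ubiquitin ligase that in mammals is abundant in cartilage, had 8.08, 14.8 and 18.8 CPM and then 33.4, 91.5 and 78.6 (2.29, SE 0.43, adjusted p = 0.0214). Its call held only without replicate 3 of 3 dpe or replicate 1 of 8 dpe, with adjusted p between 0.0667 and 0.0999 without the other 4.

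Both genes belong to a list of 33 tested cartilage genes, chosen like the other lists with earlier results of these data known. It had a median log2 change of 2.66 and no called fall. Of its members, 16 had an unadjusted p under 0.05, all higher at 8 dpe, and 26 had every 8 dpe library above every 3 dpe library, where 11.4% of all genes did. The summed level of the list was 638, 1287 and 2056 CPM at 3 dpe and 4824, 7799 and 12029 at 8 dpe. Replicate 1 had the lowest sum at each time and replicate 3 the highest, and most members with large differences were not called.

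COL2A1, the main fibrillar collagen of cartilage, had 140.4, 251 and 511 CPM at 3 dpe and 1576, 2568 and 3622 at 8 dpe (3.10, SE 1.19, adjusted p = 0.396). Its groups did not overlap, and it passed the threshold in the fit of the 6 control libraries alone (adjusted p = 0.0242). That fit left out the spread of the overexpressing libraries and also differed in genes tested, scaling and residual degrees of freedom, which were not separated. COL9A3.L, a chain of the collagen that coats these fibrils, had 29.02, 86.7 and 196 CPM and then 414, 739.7 and 1046 (adjusted p = 0.516; 0.0707 with only control libraries). COL11A1, a chain of the collagen inside them, had 171, 529 and 629 CPM and then 952, 1254 and 1846 (adjusted p = 0.642; 0.1535 with only control libraries). In all 3 genes every 8 dpe library was higher, and replicate 1 was the lowest at each time.

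The following cartilage genes were chosen after their values were seen. SOX9, the master factor of cartilage formation, had 3.82, 10.4 and 33.9 CPM at 3 dpe and 80.6, 116 and 132 at 8 dpe (2.78, SE 1.09, adjusted p = 0.416). SOX5 and SOX6, its partners, had between 11.4 and 23.7 and between 1.91 and 10.8 CPM at 3 dpe, and between 60.98 and 119 and between 50.1 and 76.5 at 8 dpe. None of these 3 factors overlapped between times, and in the control libraries alone SOX5 (adjusted p = 0.0199) and SOX6 (0.0303) passed the threshold, but not SOX9 (0.08197).

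ACAN, the large proteoglycan aggrecan, had 0.182, 32.995 and 102 CPM and then 188, 635 and 1201 (adjusted p = 0.585). PTH1R, the receptor of parathyroid hormone-related protein, which paces cartilage maturation, had between 2.27 and 14.8 CPM and then between 40.7 and 60.4 (adjusted p = 0.562). MATN1.L, matrilin-1, a protein of cartilage matrix, had 0, 7.41 and 3.53 CPM and then 108, 127 and 697 (adjusted p = 0.516). In each of these genes, chosen after their values were seen, all 8 dpe libraries were higher, and ACAN was near 0 only in replicate 1 of 3 dpe. With only control libraries none of them passed the threshold (adjusted p = 0.223 for ACAN, 0.0589 for PTH1R and 0.0559 for MATN1.L).

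Genes of joints, tendons and bone gave no call among 18 tested members (median 0.73; 5 higher and 2 lower at an unadjusted p under 0.05). In 8 of the 18 every 8 dpe library was above every 3 dpe library and in 0 below, where 11.4% and 6.22% of all genes were. The members of highest mean level changed little. COL12A1 (log2 change 0.53, adjusted p = 0.805) and THBS2 (0.28, adjusted p = 0.890) overlapped between times, and SPARC (0.48, adjusted p = 0.850) did not. TNMD, tenomodulin, a membrane protein of tendon cells, had 41.8, 45.9 and 71.05 CPM at 3 dpe and 317, 205 and 233 at 8 dpe (2.25, SE 0.92, adjusted p = 0.451; 0.01299 with only control libraries). GDF5, a growth factor of forming joints, had 0.4996, 3.398 and 3.41 CPM and then 27.4, 30.6 and 48.8 (adjusted p = 0.424; 0.0199 with only control libraries). Both, like the tendon factor MKX (0, 0.552 and 0.162 CPM and then 2.46, 5.55 and 14.3; adjusted p = 0.0559 with only control libraries), were chosen after their values were seen, and their groups did not overlap. ERG, a factor of joint cartilage that is also one of the endothelial markers and was chosen in the same way, had between 1.27 and 2.192 CPM at 3 dpe and between 11.98 and 14.9 at 8 dpe (adjusted p = 0.319; 0.0109 with only control libraries).

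**Figure D3:**
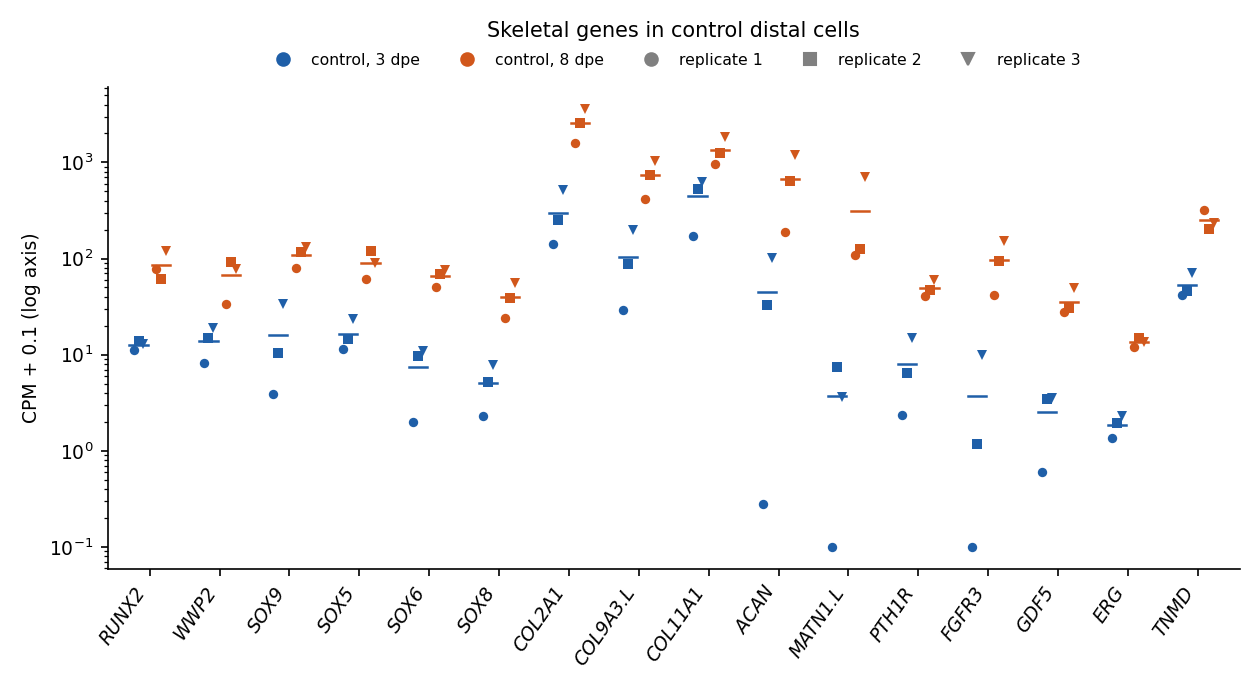
CPM + 0.1 (log axis) of cartilage, joint and tendon genes in the 6 control libraries (blue, 3 dpe; orange, 8 dpe; symbol, replicate; line, mean of 3). All 8 dpe libraries lie above all 3 dpe libraries in each gene drawn, and only RUNX2 and WWP2 passed the threshold; for most genes replicate 1 is the lowest of 3 dpe. Most of the genes were chosen after their values were seen, so their separation only describes the choice. Over the whole lists, 26 of 33 cartilage genes and 8 of 18 joint, tendon and bone genes were higher in every 8 dpe library. The lists too were chosen with earlier results of these data known, so these counts are a description.

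The wider matrix lists leaned the same way with few calls. Of 28 tested collagen chains none was called. At an unadjusted p under 0.05, 9 were higher and 0 lower at 8 dpe (median 1.13), against 1392 and 918 of all 25377 genes. COL1A1, a chain of collagen I, the main fibril of connective tissue, had 391, 904 and 1299 CPM at 3 dpe and 1072, 1245 and 2690.5 at 8 dpe (adjusted p = 0.699), and COL3A1, of the finer collagen III, had 1213, 4379.7 and 4227 CPM and then 3487, 3279.7 and 4172 (adjusted p = 0.992). Both overlapped between times, with replicate 1 of 3 dpe the lowest library. COL8A1, a short-chain collagen, had 1.04, 4.39 and 9.18 CPM and then 14.7, 28.3 and 43.7, higher in every 8 dpe library (adjusted p = 0.328). Of 28 enzymes that build, modify or fold collagen none was called and 9 had an unadjusted p under 0.05, all higher (median 0.92).

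Of 58 other matrix genes, ASPN.L was the only one called, where 0.268% of all genes were called higher. At an unadjusted p under 0.05, 15 were higher and 0 lower at 8 dpe (median 0.56), against 1392 and 918 of all 25377 genes. TNC, tenascin-C, a matrix protein of blastemas and of embryonic tendon and cartilage, had 173, 294 and 383 CPM at 3 dpe and 917, 1163 and 1038 at 8 dpe (1.88, SE 0.54, adjusted p = 0.169; 0.0342 with only control libraries). OGN, osteoglycin, a relative of asporin chosen after its values were seen, had 97.2, 49.6 and 55.6 CPM and then 203, 167 and 308 (adjusted p = 0.0791; 0.06085 with only control libraries). POSTN, periostin, a matrix protein of connective tissue, had 2134, 1519.8 and 1069 CPM and then 3338, 2186 and 2508 (adjusted p = 0.797). None of the 3 overlapped between times, though for POSTN the highest 3 dpe and the lowest 8 dpe library were nearly level.

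FSTL1, a secreted glycoprotein that binds BMPs, had 1197, 2003 and 2024 CPM at 3 dpe and 3223, 2691 and 3623 at 8 dpe, higher in every 8 dpe library (adjusted p = 0.634). PDGFRA, a growth factor receptor of connective tissue cells, had 43.3, 136 and 162 CPM and then 256, 255 and 369 (adjusted p = 0.4995), also with no overlap. In contrast, TWIST1 and PRRX1, factors of limb mesenchyme, overlapped between times, with between 17.05 and 30.98 CPM and then between 25.7 and 33.4, and with between 3.59 and 16.5 CPM and then between 9.95 and 22.7 (both chosen after their values were seen).

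CHST13, KAZALD1 and SULF1 were chosen after their values were seen. CHST13, a sulfotransferase of chondroitin, the sugar of cartilage proteoglycans, had 21.1, 23.6 and 30.1 CPM at 3 dpe and 168, 182 and 177 at 8 dpe (2.82, SE 0.41, adjusted p = 0.00403). The libraries of each time were close together, and the call was stable. KAZALD1, a secreted relative of insulin-like growth factor binding proteins, had 4.27, 2.12 and 2.88 CPM and then 23.3, 18.1 and 23.997 (2.82, SE 0.61, adjusted p = 0.0494), but was called in none of the 6 fits with a library left out (0.106 to 0.199). SULF1, which removes sulfate from heparan sulfate, was not called, with 31.7, 34.4 and 34.1 CPM and then 131, 189 and 164 (adjusted p = 0.0914; 0.0109 with only control libraries).

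Among matrix proteases, PLAU fell. PLAU, urokinase, which activates plasmin at the surface of migrating cells, had 27.4, 35.7 and 42.6 CPM at 3 dpe and 8.05, 6.53 and 4.25 at 8 dpe (log2 change -2.49, SE 0.36, adjusted p = 0.00403). Every 8 dpe library was well below every 3 dpe library, and the call was stable. It was the only called member of 43 tested proteases and inhibitors (median 0.06), of which 8 were higher and 9 lower at an unadjusted p under 0.05.

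Several metalloproteinases, which cleave collagen and other matrix proteins outside cells, had lower values at 8 dpe. MMP13, a collagenase, had 50.5, 106 and 120.4 CPM at 3 dpe and 1.15, 3.84 and 6.498 at 8 dpe (-4.59, SE 1.06, adjusted p = 0.0666; 0.0125 with only control libraries). MMPE, chosen after its values were seen, had 21.2, 66.3 and 62.8 CPM and then 6.02, 1.32 and 1.85 (adjusted p = 0.0544; 0.0188 with only control libraries). MMP19, chosen in the same way, had 22.3, 40.4 and 46.7 CPM and then 10.8, 12.4 and 17.1 (adjusted p = 0.05504; 0.0679 with only control libraries). All 3 were lower in every 8 dpe library and lowest at 3 dpe in replicate 1, and none passed the threshold with all libraries.

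MMP13 and MMPE stand at the ends of a run of neighbouring gene models on chromosome 7q, in which 8 were tested and 7 had counts in control cells. All 7 had a log2 change below 0, 6 had every 8 dpe library below every 3 dpe library (6.22% of all genes did), and 2 were called (0.154% of all genes were called lower). The run was chosen after its values were seen, so these counts only describe it. One of the called models, which the files name COL and give no role, had 167, 58.9 and 67.03 CPM at 3 dpe and 0.982, 0 and 2.22 at 8 dpe (-6.47, SE 1.38, adjusted p = 0.0471), the largest fall among the called genes named here with counts at both times. Its 8 dpe libraries were at or near 0, yet no fit with a library left out called it (0.0518 to 0.1601). The other, LOC115468492, had 18.4, 16.3 and 11.9 CPM and then 0.884, 0.824 and 0.591 (-4.33, SE 0.87, adjusted p = 0.0349), and stayed called only without replicate 3 of 3 dpe (up to 0.206 otherwise).

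In the deposited annotation MMP13 lies at 768348884 to 768408650, LOC115468492 (AMEX60DD049489) at 768998327 to 769047841, COL (AMEX60DD049490) at 769728957 to 769740418 and MMPE at 773702091 to 773764117. Between COL and MMPE the files place a model named MMP3/10B and a pair named MMP3/10A. MMP3/10B (770604144 to 770628728) had 9.719, 0.6099 and 2.72 CPM at 3 dpe and 3.994, 0 and 2.067 at 8 dpe, with overlap. Of the MMP3/10A models, AMEX60DD049496 (771474186 to 771615084) had 2.543, 7.145 and 5.806 CPM and then 0.1637, 0 and 0.07384 (adjusted p = 0.0765). Its neighbour AMEX60DD049493 (770954416 to 770977908) had at most 0.61 CPM at 3 dpe and no count at 8 dpe. Before the run, DCUN1D5, a regulator of protein neddylation, overlapped between times, with 209.3, 153.5 and 131.8 CPM and then 137.6, 117.7 and 121.4. Reads of near-identical neighbours can be lost or split by the counting of unique alignments, so the values of single models in this run are uncertain.

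Away from that run, MMP2, a gelatinase, had between 478 and 629 CPM at 3 dpe and between 526 and 666 at 8 dpe and overlapped. TIMP1, an inhibitor of metalloproteinases chosen after its values were seen, had 5.86, 9.38 and 23.8 CPM and then 30.9, 61.4 and 77.9, higher in every 8 dpe library (adjusted p = 0.0713). CTSK, cathepsin K, a lysosomal protease that cuts collagen, had 305, 337 and 296 CPM and then 169, 93.1 and 171, lower in every 8 dpe library (adjusted p = 0.436).

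Among signals and their receptors single genes were called, while the BMP and TGF-beta list leaned higher. INHBA, the subunit of activin A, had 4.54, 7.203 and 5.03 CPM at 3 dpe and 33.8, 70.2 and 43.9 at 8 dpe (3.14, SE 0.62, adjusted p = 0.031996). The groups were well apart, but the call held only without replicate 1 of 8 dpe, and without any of the other 5 libraries adjusted p lay between 0.0673 and 0.1399. INHBA was the only one of 39 tested BMP and TGF-beta genes to be called (median 0.71; 7 higher and 1 lower at an unadjusted p under 0.05). In 14 of the 39 every 8 dpe library was above every 3 dpe library and in 2 below, where 11.4% and 6.22% of all genes were. The list summed to between 3646 and 4485 CPM at 3 dpe and between 4919 and 6266 at 8 dpe. GREM1, a BMP antagonist of the limb bud chosen after its values were seen, had 2.23, 10.3 and 18.3 CPM and then 0, 0.0549 and 0.0738 (adjusted p = 0.168; 0.0121 with only control libraries). NOG, noggin, another BMP antagonist chosen in the same way, had 1.04, 0.174 and 2.07 CPM and then 4.65, 22.1 and 22.1 (adjusted p = 0.371; 0.062 with only control libraries). GREM1 was thus lower, and NOG higher, in every 8 dpe library. BMPR1B, the BMP receptor of limb cartilage condensations, also chosen after its values were seen, had 11.9, 18.4 and 40.3 CPM and then 58.6, 87.2 and 101 (adjusted p = 0.3495; 0.0938 with only control libraries).

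FZD9, a Wnt receptor, had 0.5904, 1.28 and 1.46 CPM at 3 dpe and 5.04, 8.95 and 14.3 at 8 dpe (3.08, SE 0.54, adjusted p = 0.0132), and was no longer called without replicate 1 of 3 dpe (0.0756) or replicate 3 of 8 dpe (0.0999). It was the only call among 49 tested Wnt genes (median 0.32; 8 higher and 2 lower at an unadjusted p under 0.05). WLS, which carries Wnt proteins to the cell surface and was chosen after its values were seen, had 130.1, 119 and 132 CPM and then 47.6, 46.2 and 54.8 (-1.36, SE 0.28, adjusted p = 0.0349). Its libraries were close together within each time, but the call was lost in all 6 fits with 1 left out (0.0554 to 0.164). A pair of ligands, chosen after their values were seen, differed in opposite directions without a call. WNT11 had 3.36, 9.12 and 14.1 CPM and then 48.1, 62.4 and 62.4 (adjusted p = 0.111), and WNT-5B had 23.3, 78.2 and 84.9 CPM and then 11.3, 19.2 and 13.03 (adjusted p = 0.187).

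Growth signals of the distal limb gave no call. SHH, sonic hedgehog, had 42.97, 48.4 and 48.6 CPM at 3 dpe and 5.63, 1.92 and 0.111 at 8 dpe (-4.18, SE 1.37, adjusted p = 0.279; 0.0504 with only control libraries). FGF8, which in axolotls is made by the mesenchyme of the limb rather than by its epidermis, had 17.5, 7.64 and 16.5 CPM and then 0.982, 1.76 and 0.295 (-3.78, SE 1.19, adjusted p = 0.246; 0.0218 with only control libraries). Both were lower in every 8 dpe library, and neither passed the threshold with all libraries. FGF10, the outgrowth signal of limb mesenchyme, had between 31.3 and 35.1 CPM and then between 21.2 and 24.4 (adjusted p = 0.874). PTCH1, the hedgehog receptor and a target of the pathway, had 49.1, 87.4 and 121 CPM and then 73.5, 71.7 and 73.7, so its groups overlapped. ETV4, an FGF target, had 101, 178 and 114 CPM and then 76.2, 47.8 and 51.7 (adjusted p = 0.297; 0.095 with only control libraries).

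A pair of FGF receptors, chosen after their values were seen, were higher in every 8 dpe library without a call. FGFR2 had 0.0454, 2.79 and 19.04 CPM at 3 dpe and 51.8, 95.5 and 155 at 8 dpe (adjusted p = 0.138; 0.171 with only control libraries). FGFR3, the receptor that slows the growth of cartilage, had 0, 1.07 and 9.82 CPM and then 41.4, 94.9 and 154 (adjusted p = 0.297; 0.108 with only control libraries). At 3 dpe both were at or near 0 in replicate 1, and FGFR1, found by the rule for named genes, had 40.01, 67.4 and 90.5 CPM and then 134, 147 and 212 (adjusted p = 0.471). IGFBP1, a secreted binding protein of insulin-like growth factors, had 29.4, 41.4 and 23.9 CPM and then 4.91, 14.5 and 2.07 (adjusted p = 0.2601), lower in every 8 dpe library.

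No member was called among 23 FGF, 18 hedgehog, 14 Notch or 19 IGF and PDGF genes tested. Their medians were -0.16, 0.13, 0.17 and 0.24, and at an unadjusted p under 0.05 they had 3, 2, 2 and 5 members higher and 2, 1, 0 and 2 lower.

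Of 52 tested adhesion and guidance genes 2 were called, both higher, where 0.268% of all genes were called higher. At an unadjusted p under 0.05, 12 were higher and 1 lower (median 0.63). In 24 of the 52 every 8 dpe library was above every 3 dpe library and in 2 below, where 11.4% and 6.22% of all genes were. One of the called genes was SEMA3D.L, given above. The other was EPHA5, a receptor for ephrins, which was not counted in any 3 dpe library and had 3.24, 8.35 and 4.47 CPM at 8 dpe, at least 133-fold higher than the floor of 3 counts over the 3 dpe group. Its adjusted p was 0.0349 with all libraries and between 0.0554 and 0.108 with any 1 control library left out. Outside the lists, SEMA5B, a transmembrane semaphorin chosen after its values were seen, had 2.998, 6.77 and 10.03 CPM and then 30.6, 44.1 and 48.03 (2.63, SE 0.54, adjusted p = 0.0375). It stayed called only without replicate 3 of 3 dpe, with adjusted p up to 0.162 otherwise.

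RET, the receptor of GDNF family ligands, which is known from neurons and neural crest cells, had 0.0454, 0.319 and 0 CPM at 3 dpe and 8.38, 20.4 and 17.2 at 8 dpe (6.81, SE 1.37, adjusted p = 0.0386). Its call held only without replicate 2 of 3 dpe, with adjusted p up to 0.159 otherwise. NGFR, the low-affinity nerve growth factor receptor and one of the nerve sheath markers, chosen after its values were seen, had 1.45, 4.44 and 4.1004 CPM and then 41.4, 32.1 and 37.99 (3.47, SE 0.77, adjusted p = 0.0624; 0.0106 with only control libraries). All 8 dpe libraries were higher in both genes. The sum of nerve sheath markers moved the same way, as given above, with SOX10 at no more than 5.06 CPM, and its part in RET was not tested.

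Transcription factors with stable calls, among the 48 called genes examined with libraries left out, were NFATC1, NFIA, NFIB, BCL11A, RUNX2 and PRDM1. NFATC1, a factor activated by calcium through calcineurin and required for osteoclasts and heart valves in mammals, had 5.18, 5.87 and 11.2 CPM at 3 dpe and 58.2, 76.5 and 65.3 at 8 dpe. Its log2 change was 3.17 (SE 0.37, adjusted p = 9.62e-04), and adjusted p stayed between 9.40e-04 and 0.00575 with any control library left out. NFIA, a nuclear factor I like NFIB, had 7.18, 12.9 and 25.3 CPM and then 91.1, 93.6 and 179.98 (3.01, SE 0.42, adjusted p = 0.00306). In both genes the lowest 8 dpe library was several times the highest 3 dpe library.

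The NFIA rise belongs to the gene model AMEX60DD019413 on chromosome 1q (1197253918 to 1197950961). Another model with the same symbol, AMEX60DD033675 on chromosome 4p (679105990 to 679114303), had 10.63, 26.05 and 29.27 CPM and then 23.4, 24.99 and 16.91, with overlapping groups and a log2 change of -0.02 (SE 0.53, adjusted p = 1). NFIC, a further family member chosen after its values were seen, had 10.7, 18.8 and 36.4 CPM and then 48.6, 74.8 and 121 (1.89, SE 0.41, adjusted p = 0.0476). Its call held only without replicate 3 of 3 dpe or replicate 1 of 8 dpe, and reached 0.3096 otherwise.

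BCL11A, a zinc finger repressor known for silencing fetal globin in humans, was the only call among 34 tested limb transcription factors (median 0.81; 8 higher and 1 lower at an unadjusted p under 0.05). It had 11.8, 11.5 and 27.3 CPM at 3 dpe and 71.1, 93.6 and 83.5 at 8 dpe (2.29, SE 0.34, adjusted p = 0.00403), a stable call. CREB5, a leucine zipper factor, had 1.36, 3.57 and 10.5 CPM and then 50.6, 69.4 and 62.9 (3.56, SE 0.71, adjusted p = 0.0339), and was called without replicate 3 of 3 dpe but with adjusted p up to 0.119 without any other control library. Neither gene overlapped between times.

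SHOX and SHOX2, homeobox factors of the limb skeleton, and SALL4, a factor of undifferentiated limb mesenchyme, were chosen after their values were seen. SHOX had 0.454, 0.145 and 0.122 CPM at 3 dpe and 8.77, 6.37 and 11.1 at 8 dpe (adjusted p = 0.0631), and SHOX2 had 1.14, 1.31 and 1.38 CPM and then 7.46, 11.3 and 13.3 (adjusted p = 0.215). SALL4 had 50.3, 36.04 and 39.6 CPM and then 10.3, 9.34 and 5.54 (adjusted p = 0.413). The 3 factors did not overlap between times, and in the control libraries alone their adjusted p were 0.009604, 0.0121 and 0.0121. LHX9, a relative of LHX2, had 65.3, 57.3 and 43.2 CPM and then 84.8, 106 and 42.5, with overlap.

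KLF2, a zinc finger factor that in vessels responds to blood flow, had 3.86, 2.701 and 11.4 CPM at 3 dpe and 27.3, 53.4 and 62.5 at 8 dpe (3.00, SE 0.59, adjusted p = 0.0332). FLI1, an Ets factor of blood and endothelium chosen after its values were seen, had 2.73, 6.01 and 15.9 CPM and then 28.02, 50.5 and 53.8 (2.42, SE 0.52, adjusted p = 0.0494). KLF2 stayed called only without replicate 3 of 3 dpe or replicate 1 of 8 dpe (up to 0.143 otherwise), and FLI1 only without replicate 3 of 3 dpe (up to 0.231). The sum of 9 tested endothelial markers, ERG among them, moved the same way and was at most 51.6 CPM in any control library. PECAM1 and CDH5, which define these cells, had means of 1.81 and 0.84 CPM at 8 dpe. The part of endothelial cells in either gene was not tested.

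The transcription factors that fell included PRDM1, a repressor known for ending proliferation in maturing B cells. It had 41.8, 91.3 and 84.97 CPM at 3 dpe and 7.398, 13.8 and 7.72 at 8 dpe (log2 change -2.92, SE 0.36, adjusted p = 0.00175), and adjusted p stayed between 4.95e-04 and 0.0238 with any control library left out. RUNX1, the relative of RUNX2 needed for blood stem cells in mammals, had 34.3, 66.8 and 46.2 CPM and then 5.76, 6.86 and 14.1 (-2.46, SE 0.46, adjusted p = 0.0214). It thus moved opposite to RUNX2, but its call was lost without replicate 2 of 3 dpe (0.0554) or replicates 1 (0.0918) or 2 (0.125) of 8 dpe. ETS2, an Ets factor that responds to MAP kinase signals, chosen after its values were seen, had 94.1, 86.1 and 51.2 CPM and then 29.8, 24.2 and 23.4 (-1.58, SE 0.34, adjusted p = 0.0493), and was called only without replicate 3 of 3 dpe (up to 0.223 otherwise).

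No Hox gene was called. Of 18 tested, 7 had a log2 change above 0 and 11 below, with a median of -0.96. HoxD13, a gene of the hand like HoxA13, had 30.2, 26.6 and 41.2 CPM at 3 dpe and 71.5, 72.7 and 60.4 at 8 dpe (1.06, SE 0.90, adjusted p = 0.802). HoxA11, a gene of the forearm, had 4.31, 5.43 and 4.18 CPM and then 1.54, 1.81 and 1.37 (adjusted p = 0.749). HoxD11, its relative of the HoxD cluster, had 30.4, 24.4 and 17.1 CPM and then 10.1, 7.74 and 5.06 (adjusted p = 0.694). The time points did not overlap in these 3 genes, although HoxA13 levels did, as did those of HoxA9 (between 1.096 and 2.54 CPM and then between 0.591 and 1.43). With only control libraries, HoxD11, chosen after its values were seen, passed the threshold (adjusted p = 0.0471) and HoxD13 did not (0.108).

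Of 9 tested genes of proximal identity, only PROD1 was called, and 2 were higher and 1 lower at an unadjusted p under 0.05 (median 0.22). PROD1, a salamander protein that marks proximal blastema cells, had 1.91, 0.232 and 4.71 CPM at 3 dpe and no count in any 8 dpe library. With the floor of 3 counts over the group, PROD1 was at least 51.8-fold lower at 8 than at 3 dpe (adjusted p = 0.0152). The call was lost without any of the 8 dpe libraries (0.0554, 0.0524 and 0.0804 without replicates 1, 2 and 3) and with only control libraries (0.0601). The 3 dpe levels it rested on were low. MEIS1 and MEIS2, homeobox factors of the upper arm, had at most 0.879 and 0.714 CPM in any control library. Within these low levels MEIS1 was higher in every 8 dpe library, with 0, 0 and 0.122 CPM and then 0.164, 0.879 and 0.258 (adjusted p = 0.5404).

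Of 12 tested retinoic acid genes, 2 rose. RXRA, the receptor that pairs with retinoic acid receptors, had 4.54, 3.17 and 7.67 CPM at 3 dpe and 19.9, 19.7 and 18.4 at 8 dpe (1.92, SE 0.36, adjusted p = 0.0214). DHRS3, which turns retinaldehyde back into retinol, had 5.54, 4.59 and 12.5 CPM and then 18.7, 27.8 and 31.2 (1.78, SE 0.37, adjusted p = 0.0398). The groups did not overlap, but each call held only without replicate 3 of 3 dpe and otherwise reached 0.0992 for RXRA and 0.22 for DHRS3. CRABP2, which carries retinoic acid to the nucleus, had 601, 1075 and 727 CPM and then 268, 328 and 315, lower in every 8 dpe library (adjusted p = 0.416).

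The falls also held genes of immunity and of cell survival. B2M, the light chain of MHC class I molecules, had 162, 69.6 and 73.5 CPM at 3 dpe and 29.3, 13.4 and 18.2 at 8 dpe (-2.33, SE 0.35, adjusted p = 0.00466). SOCS1, a feedback inhibitor of cytokine receptors, had 50.1, 43.1 and 46.6 CPM and then 9.69, 16.9 and 16.1 (-1.71, SE 0.34, adjusted p = 0.0349). B2M was a stable call, whereas SOCS1 held only without replicates 2 or 3 of 3 dpe and reached 0.116 otherwise. SOCS1 was the only call among 25 interferon and inflammation genes (median -0.07; 1 higher and 4 lower at an unadjusted p under 0.05).

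LYG2, a goose-type lysozyme, had 35.3, 38.2 and 32.3 CPM at 3 dpe and 5.86, 3.79 and 3.54 at 8 dpe (-3.00, SE 0.42, adjusted p = 0.00306), with the libraries of each time close together. SLURP1L.S, named for a small secreted protein of the Ly6 family, had 29.9, 174 and 103 CPM and then 2.29, 5.93 and 2.3997 (-4.86, SE 0.66, adjusted p = 0.00306). TNFRSF21, death receptor 6, had 14.2, 41.1 and 23.95 CPM and then 4.58, 3.57 and 5.24 (-2.56, SE 0.38, adjusted p = 0.00403). All 3 calls were stable, with no overlap between times.

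BCL2L11, BIM, which triggers cell death through mitochondria, had 27.6, 49.5 and 31.9 CPM at 3 dpe and 8.84, 6.15 and 10.3 at 8 dpe (-2.10, SE 0.33, adjusted p = 0.00652), a stable call. AIFM2, which protects membranes from lipid oxidation, had 11.1, 9.53 and 11.9 CPM and then 3.47, 1.65 and 1.29 (-2.33, SE 0.47, adjusted p = 0.0349), but held only without replicate 1 of 8 dpe and reached 0.206 otherwise. Both were lower in every 8 dpe library. LIMCH1, a regulator of non-muscle myosin, had 18.1, 36.7 and 39.2 CPM and then 4.84, 8.62 and 2.55 (-2.56, SE 0.45, adjusted p = 0.0132). SLC29A1, a nucleoside transporter, had 57.3, 49.3 and 24.8 CPM and then 8.48, 7.41 and 7.31 (-2.50, SE 0.41, adjusted p = 0.00818). Without replicate 3 of 8 dpe both missed the threshold (0.0826 and 0.0624), as did LIMCH1 without replicate 1 of 8 dpe (0.0581).

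AXL, a receptor tyrosine kinase for the ligand GAS6, had 117, 102 and 124 CPM at 3 dpe and 29.002, 28.6 and 38.4 at 8 dpe (-1.84, SE 0.35, adjusted p = 0.0214). IL4R, a chain of the interleukin-4 receptor, had 27.9, 52.3 and 50.9 CPM and then 16.1, 8.95 and 17.8 (-1.61, SE 0.33, adjusted p = 0.0349). Both were chosen after their values were seen, did not overlap, and were lost in 4 and 5 of the 6 fits with a library left out, with adjusted p up to 0.1199 and 0.175. AXL stayed called without replicates 2 or 3 of 3 dpe and IL4R without replicate 1 of 3 dpe. The sum of myeloid markers, at most 126 CPM in any control library, overlapped between times, though 14 of 16 tested myeloid markers had a log2 change below 0. Their part in AXL and IL4R was not tested.

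The cell cycle gave no call. None of 55 DNA replication genes had an unadjusted p under 0.05 (median -0.16), and PCNA.L, the sliding clamp of DNA polymerase, had 765, 522 and 351 CPM at 3 dpe and 490.4, 259 and 271 at 8 dpe, with overlap. Of 68 mitosis genes, 5 had an unadjusted p under 0.05, all higher at 8 dpe, 29 had every 8 dpe library above every 3 dpe library (11.4% of all genes did), and the median was 0.49. Of 30 genes of G1 and cell cycle exit, 2 were higher and 3 lower at that threshold (median -0.11).

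MKI67.S, the proliferation marker Ki-67, had 225, 267 and 225 CPM at 3 dpe and 388, 390.5 and 402 at 8 dpe (0.72, SE 0.24, adjusted p = 0.296). TOP2A, a topoisomerase of dividing cells, had 73.3, 108 and 90.4 CPM and then 167, 214 and 179.5 (adjusted p = 0.50001). CCND1, cyclin D1, which carries cells through G1, had 113, 149 and 207 CPM and then 301, 264 and 237 (adjusted p = 0.389). All 3 were higher in every 8 dpe library, and none passed the threshold, also not with only control libraries (adjusted p = 0.245, 0.118 and 0.2815). MYCN, a Myc-family regulator of growth chosen after its values were seen, was lower in every 8 dpe library, with 56.3, 70.1 and 53.8 CPM and then 14.04, 11.7 and 7.24 (-2.45, SE 0.71, adjusted p = 0.178; 0.0109 with only control libraries).

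Ribosomal protein genes were lower without a call. Of 70 tested, 67 had a log2 change below 0 and 32 had an unadjusted p under 0.05, all lower at 8 dpe (median -0.74). The sums were 49687, 29534 and 27300.4 CPM at 3 dpe and 20562, 26962 and 20458 at 8 dpe, with replicate 1 of 3 dpe far above the other 5 and the groups barely apart without it. RPL23 had 1983, 854 and 852 CPM and then 555, 525 and 596 (adjusted p = 0.173, or 0.835 without replicate 1 of 3 dpe; chosen after its values were seen).

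Of 51 nuclear genes of oxidative phosphorylation, 49 had a log2 change below 0 and 7 an unadjusted p under 0.05 (median -0.48). Their sums overlapped between times, with 7816, 4739 and 3949 CPM at 3 dpe and 4611, 3911 and 3597 at 8 dpe, and replicate 1 of 3 dpe was again far above the other 5. Among 29 glycolysis and hypoxia genes (median 0.06), ENO1, enolase, chosen after its values were seen, had 238, 256 and 194 CPM and then 105, 93.6 and 103 (adjusted p = 0.0846; 0.0493 with only control libraries). PKM and ALDOA, pyruvate kinase and aldolase, had between 422 and 467 CPM and then between 201 and 272, and between 211 and 311 CPM and then between 119 and 192 (adjusted p = 0.307 and 0.371). These 3 enzymes were lower in every 8 dpe library, without a call, and with only control libraries PKM (adjusted p = 0.118) and ALDOA (0.159) also missed the threshold. LDHA, lactate dehydrogenase, overlapped between times, with 458, 454 and 311 CPM and then 353, 218 and 265 (adjusted p = 0.619). Of the 29 genes, 15 had a log2 change above 0 and 14 below.

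Of 31 stress and immediate early genes, KLF2 was the only call, and 6 were higher and 6 lower at an unadjusted p under 0.05 (median 0.13). HMOX1, a haem-degrading enzyme of the stress response chosen after its values were seen, had 50.7, 45.98 and 23.95 CPM at 3 dpe and 14.4, 6.42 and 4.36 at 8 dpe (adjusted p = 0.111). Across the 25 lists, 14 of 843 tested symbols were called, where 0.422% of all genes were.

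**Figure D4:**
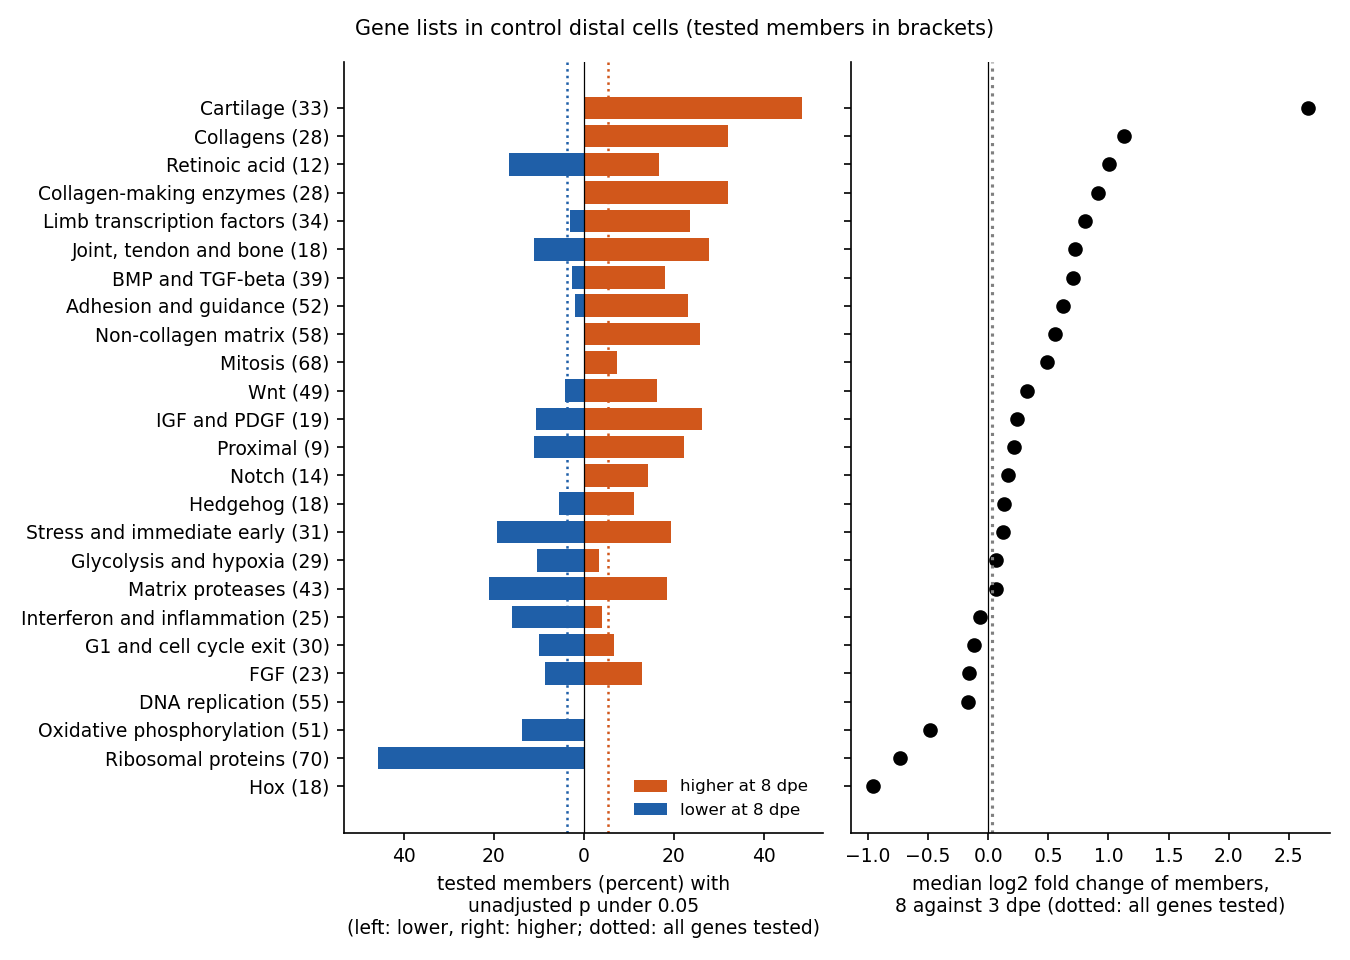
The 25 gene lists, ordered by the median log2 fold change of their tested members (right), with the percent of members at an unadjusted p under 0.05 that were higher (orange) or lower (blue) at 8 dpe (left); dotted lines give all 25377 genes. Cartilage has the highest median (2.66), with 16 of 33 members higher; among ribosomal protein genes 32 of 70 were lower, and Hox has the lowest median (-0.96) with no member on either side.

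The time change of control cells was next set beside that of overexpressing cells of the same blastemas, which share no library with them. The 68 genes that rose in control cells had a median log2 change of 2.41 there, 0.25 in Tig1 cells and 0.19 in Tig1P155A cells. The 39 that fell had -2.52, -0.86 and -0.63. The values in control cells chose these genes, so the medians are given as a description. Of the 107, 79 had a log2 change of the same sign in Tig1 cells and 74 in Tig1P155A cells, against 53.6% and 53.99% of all genes. The falls shared their sign more often than the rises. Of the 39 falls, 35 and 36 had the same sign in Tig1 and Tig1P155A cells, and of the 68 rises 44 and 38. Of the 107, 2 and 14 were called there too, in comparisons with 13 and 349 calls.

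Whether the change itself differed was tested as an interaction: the mean change of both overexpressing groups minus that of control cells. It was called for 36 genes (0.142%), of which 31 had a lower and 5 a higher change in overexpressing cells. Leaving out 1 of the 18 libraries gave between 3 calls (without replicate 3 of 8 dpe of the control) and 45 (without replicate 3 of 3 dpe of the control). The count was 10 without replicate 2 of 3 dpe and 21 without replicate 1 of 8 dpe of the control. It was between 4 and 16 without any single Tig1P155A library, and between 9 and 20 without replicates 1 or 2 of Tig1 at either time. With library size alone as the scale no gene was called at an adjusted p under 0.05, with 1636 genes at an unadjusted p under 0.05. DESeq2, with its own scaling, called 433.

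Overexpressing libraries also differed from control libraries in the markers of other cells. Summed myeloid markers had between 8075 and 11026 CPM in overexpressing libraries at 3 dpe and between 5242 and 8983 at 8 dpe, against at most 126 in control libraries. Summed connective tissue markers had between 745 and 1622 CPM in them at 3 dpe and between 2625 and 9300.0 at 8 dpe, against between 4063 and 15147 in control libraries. The part of these differences in the interaction was not tested.

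RUNX2 had between 30.3 and 62.6 CPM in overexpressing cells at 3 dpe and between 33.01 and 93.3 at 8 dpe. Its log2 change was 0.70, SE 0.36, in Tig1 cells and 0.21, SE 0.36, in Tig1P155A cells, against 2.77 in control cells (interaction -2.32, SE 0.45, adjusted p = 0.0464). That call held in 2 of 18 fits with a library left out (adjusted p up to 0.253): those without replicate 2 of 8 dpe of the control or replicate 3 of 3 dpe of Tig1. NFATC1 had between 16.5 and 38.7 CPM and then between 30.6 and 50.9 (interaction -2.57, SE 0.42, adjusted p = 0.02404), called in 12 of the 18 fits. It was lost, with adjusted p up to 0.119, without control replicate 2 of 3 dpe or 3 of 8 dpe or without Tig1P155A replicates 2 or 3 of either time. Overexpressing cells at 3 dpe had more of both transcripts than every control library of that time.

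PLAU, which fell in control cells, had between 91.2 and 232 CPM in overexpressing cells at 3 dpe and between 83.8 and 195 at 8 dpe (interaction 2.65, SE 0.42, adjusted p = 0.02404). All 12 overexpressing libraries were above all 6 control libraries. The interaction was called in 14 of 18 fits and lost, with adjusted p up to 0.102, without control replicate 3 of 8 dpe or without Tig1P155A replicates 2 or 3 of 3 dpe or 2 of 8 dpe. PRDM1 had between 38.8 and 57.9 CPM and then between 20.9 and 40.9 (interaction 2.22, SE 0.42, adjusted p = 0.0447), so that control and overexpressing cells overlapped at 3 dpe and lay apart at 8 dpe. Its interaction held in 2 of 18 fits, without replicate 1 of 3 dpe or replicate 2 of 8 dpe of the control (up to 0.185 otherwise). DHRS3 had between 41.8 and 69.6 CPM and then between 24.1 and 44.97 (interaction -2.38, SE 0.45, adjusted p = 0.0447), held only without replicate 3 of 3 dpe of the control (up to 0.206).

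NFIB, INHBA and CREB5 were higher at 8 dpe in overexpressing cells as well, and their interactions were not called. NFIB had between 2.58 and 15.7 CPM in overexpressing cells at 3 dpe and between 20.7 and 74.4 at 8 dpe. Its log2 change was 2.42 in Tig1 cells and 2.65 in Tig1P155A cells, against 5.08 in control cells. The interaction of -2.54 (SE 0.88, adjusted p = 0.349) was near those of RUNX2 and NFATC1 in size, so the missing call does not show an equal change. INHBA had between 0.152 and 2.96 CPM and then between 8.71 and 24.4 (interaction adjusted p = 0.768), and was called in Tig1P155A cells (5.29, SE 0.72, adjusted p = 0.00298). CREB5 had between 0 and 2.11 CPM and then between 8.22 and 20.9 (interaction adjusted p = 0.704), and was called in Tig1P155A cells (6.08, SE 0.88, adjusted p = 0.00403). In each of the 3 genes every overexpressing library of 8 dpe was above every one of 3 dpe. PROD1 had between 35.8 and 92.7 CPM in overexpressing cells at 3 dpe and between 2.43 and 9.89 at 8 dpe, lower at the later time as in control cells.

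**Figure D5:**
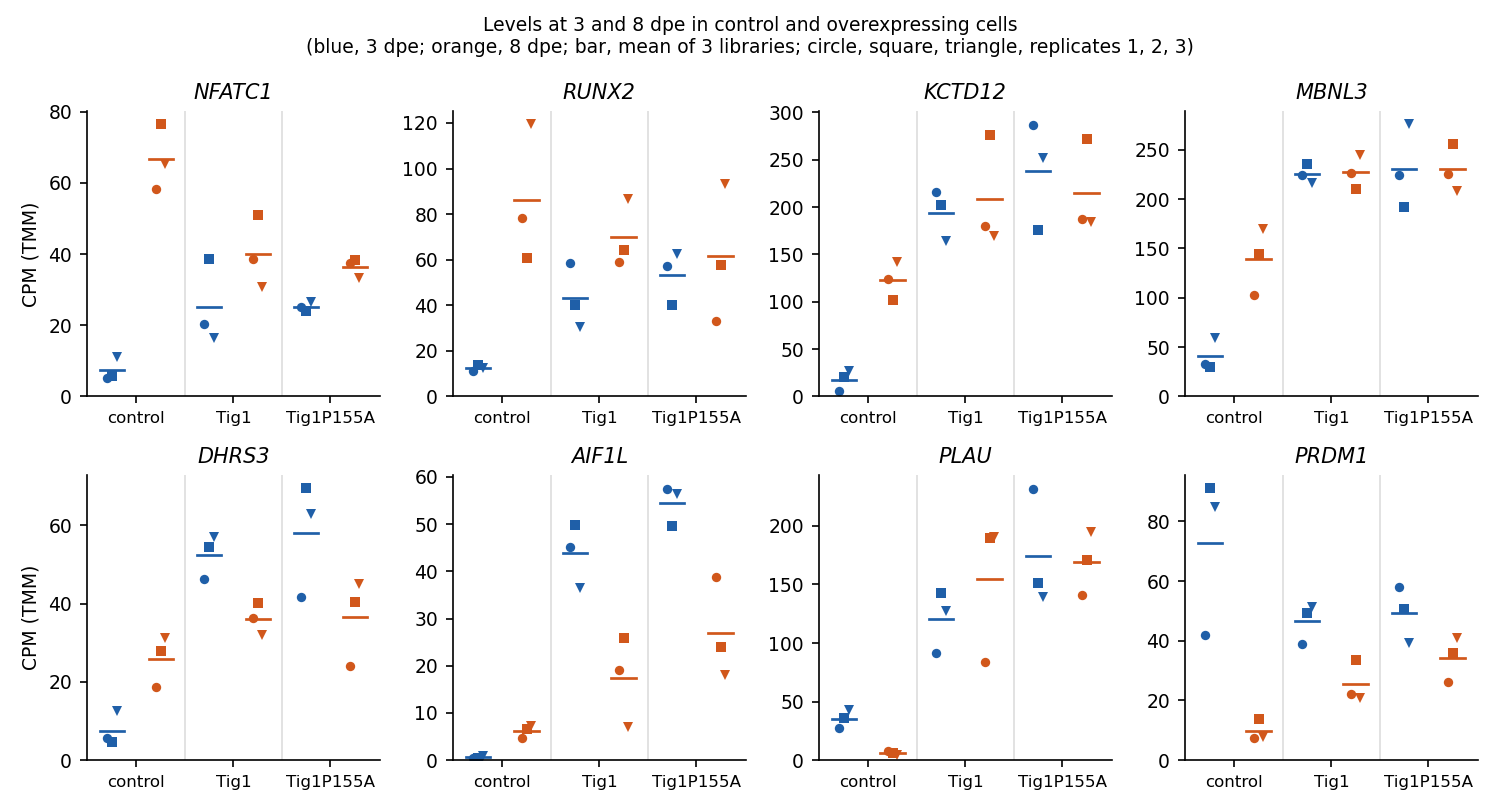
CPM of 8 genes whose change over time differed between overexpressing and control cells, in all 18 libraries, on linear axes from 0 (blue, 3 dpe; orange, 8 dpe; bar, mean of 3 libraries). The means of 3 and 8 dpe lie further apart, relative to their level, in control cells than in the Tig1 and Tig1P155A groups; for PLAU all 12 overexpressing libraries lie above all 6 control libraries.

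Some genes that rose in control cells had higher levels in every overexpressing library of 3 dpe than in any control library, and were chosen after their values were seen. AIF1L, an actin-bundling relative of a macrophage protein, had 0.454, 0.494 and 0.934 CPM at 3 dpe and 4.71, 6.699 and 7.27 at 8 dpe in control cells (3.30, SE 0.46, adjusted p = 0.00306), a stable call, against between 36.4 and 57.5 CPM in overexpressing cells at 3 dpe and between 7.04 and 38.7 at 8 dpe. These ranges overlapped, and the log2 changes of -1.33 in Tig1 cells (adjusted p = 0.205) and -1.02 in Tig1P155A cells (adjusted p = 0.257) were not called. The change differed from that in control cells (interaction -4.48, SE 0.54, adjusted p = 0.00185), and this interaction was called in all 18 fits with a library left out (9.06e-04 to 0.0156). NAAA, a lysosomal enzyme that breaks down fatty acid amides, had 1.77, 1.31 and 1.22 CPM and then 4.26, 7.03 and 6.35 (2.03, SE 0.33, adjusted p = 0.00768). The NAAA call was stable but was lost with only control libraries (adjusted p = 0.061). Overexpressing cells had between 37.3 and 116 CPM of NAAA (interaction -2.56, SE 0.39, adjusted p = 0.0196; called in 12 of 18 fits).

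KCTD12, a subunit of GABA receptors, had 5.496, 21.03 and 26.6 CPM at 3 dpe and 124, 101 and 142 at 8 dpe in control cells (2.79, SE 0.43, adjusted p = 0.00539), a stable call, against between 164 and 287 CPM in overexpressing cells (interaction -2.81, SE 0.50, adjusted p = 0.0341; called in 4 of 18 fits). MBNL3, a regulator of RNA splicing, had 32.9, 29.9 and 58.7 CPM and then 102, 145 and 169.9 (1.78, SE 0.28, adjusted p = 0.00652; 0.0607 without replicate 3 of 8 dpe), against between 192 and 276 (interaction -1.78, SE 0.34, adjusted p = 0.0451; called only without control replicate 3 of 3 dpe). AOAH, an enzyme that inactivates bacterial lipopolysaccharide, had 1.04, 0.494 and 1.14 CPM and then 4.62, 2.75 and 6.65 (2.40, SE 0.41, adjusted p = 0.00994; 0.0624 without replicate 3 of 8 dpe), against between 88.5 and 183 (interaction adjusted p = 0.0597). DOCK2, which activates Rac in leukocytes, had 1.32, 0.232 and 0.6496 CPM and then 7.43, 3.95 and 5.69 (2.99, SE 0.55, adjusted p = 0.0187), against between 37.7 and 122 (interaction adjusted p = 0.0523). It stayed called in control cells only without replicate 1 of 3 dpe or replicate 2 of 8 dpe (up to 0.0641 otherwise). Summed myeloid markers overlapped between times in control libraries, with 14 of 16 tested markers at a log2 change below 0. Their part in these genes was not tested.

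Higher levels in overexpressing cells were not limited to single genes. All 6 overexpressing libraries of 3 dpe were above all 6 control libraries in 28 of the 68 genes that rose in control cells (41.2%) and in 24 of the 39 that fell (61.5%), against 13.2% of all genes tested. The low-count filter and the fit that called these genes used the overexpressing libraries too. The choice of genes was thus not independent of these levels, and the shares are given as a description. B2M was among the falls, with between 795 and 1383 CPM in overexpressing cells at 3 dpe. The cause of these level differences was not tested.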

How the data were processed

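Cells were sorted by the authors into SMARTseq2 libraries of 300 cells, and reads were aligned with STAR 2.7.6a to AmexG_v6.0-DD, to which curated HoxA and HoxD models, the mitochondrial genome and ERCC sequences had been added. The values the authors deposited are raw counts of uniquely aligned reads per gene (featureCounts 2.0.1; demultiplexing with bcl2fastq 2.19.1), without normalization or filter. The strand setting is not given in the sources used here, so reads of overlapping genes on opposite strands may be mixed. The methods give the day of electroporation as 13 in units of dpe, which was read here as days after amputation.

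Spike-in rows (92 ERCC sequences, all at 0) were removed, whereas the 37 genes of the mitochondrial genome stayed in. A gene had to reach 0.5 CPM in 1 or more of the 18 libraries and was then tested with edgeR 4.0.16 (R 4.3.3; TMM, quasi-likelihood, Benjamini-Hochberg adjustment), with a mean for each of 6 groups and 12 residual degrees of freedom. The code was also run on simulated counts, which did not carry the differences between replicates seen here, so that run bears on the code only. DESeq2 1.42.0 was an alternative. Tables and figures were made with the R package data.table (version 1.17.8), Python 3.11.15, pandas 2.3.3, numpy 2.4.6, scipy 1.17.1 and matplotlib 3.10.9.

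Named genes were taken from the 12 largest rises and 12 largest falls among called genes that carry a symbol, average 4 CPM or more in control libraries and have groups that do not overlap; in each list the called members (up to 8) and up to 3 uncalled members of highest mean; and genes that the study names for the sorted cells. Others are marked as chosen after their values were seen. The gene lists (25 of pathways, 11 of cell type markers), the libraries compared and the rules were chosen with earlier results of these data known. Not every gene that the rule for named genes holds is reported here. Where gene models shared a symbol, that with the highest mean count in control libraries was used. FOS, MYC, CCN1, CCN2, CCN3 and RARRES1 (Tig1) were matched as C-FOS, C-MYC, CYR61, CTGF, NOV and LOC115479139. Lists are described by counts and medians, with no set test.

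Alternatives were DESeq2, its size factors in edgeR, library size alone, other filters on low counts, only the control libraries, the replicate number as a block, no mitochondrial genes, an adjusted p under 0.01 and each library left out in turn. No sequences are printed, since none were among the sources used here.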

Additional observations from a re-analysis of the deposited data

Results flagged for a closer look

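For 9 of the genes named, the change from 3 to 8 dpe differed between overexpressing and control cells in the test of the difference itself (edgeR's quasi-likelihood test). The log2 change of overexpressing minus that of control cells was -2.57 for NFATC1, -2.32 for RUNX2, -2.38 for DHRS3, -2.81 for KCTD12, -2.56 for NAAA and -1.78 for MBNL3, which rose in control cells. It was -4.48 for AIF1L, which also rose in control cells. It was 2.65 for PLAU and 2.22 for PRDM1, which fell in control cells. AIF1L was called in all 18 fits with a library left out (adjusted p between 9.06e-04 and 0.0156). The others were called in 14 (PLAU), 12 (NFATC1 and NAAA), 4 (KCTD12), 2 (PRDM1 and RUNX2) or 1 (DHRS3 and MBNL3) of the 18. With library size alone as the scale none of the 9 was called. Summed myeloid markers were higher in every overexpressing library than in any control library. Summed connective tissue markers were lower in every overexpressing library than in any control library of the same time, and the part of these markers in the 9 differences was not tested.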

How the results depend on the processing

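The count of called time changes in control cells, 107, was 608 with DESeq2, 877 with every gene with a count tested, 256 in a fit of only the control libraries, 29 with library size alone and 33 at an adjusted p under 0.01. With each control library left out in turn it lay between 31 and 121. The count of called interactions, 36, was 433 with DESeq2, 659 with every gene with a count, 12 with at least 1 CPM in at least 3 libraries, 17 without the mitochondrial genes, 3 at an adjusted p under 0.01 and 0 with library size alone, under which 1636 genes had an unadjusted p under 0.05 and the median interaction of all genes was 0.28 instead of 0.14. With each of the 18 libraries left out in turn it lay between 3 and 45. The cause of these shifts was not tested, except that the stricter threshold only removes calls. The fit of the control libraries alone left out the spread of the others. It also tested 20986 instead of 25377 genes, with its own scaling and fewer residual degrees of freedom, and these differences were not separated.

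With the replicate number as a replicate block, 104 time changes (86 of the 107) and 35 interactions (29 of the 36) were called. The numbers were not taken as pairs, since deviations from the group means correlated at 0.443, -0.164 and 0.290 for replicates 1, 2 and 3.

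None of the 48 called genes examined changed direction under the alternatives run. Of these, 18 kept their call with any control library left out and 4 lost it in every such fit. With library size alone as the scale, 33 of the 48 lost their call, some of the 18 among them. Having 3 libraries a group limited the precision, and the p-values cover only the spread between libraries of unknown pools.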
